A study of Platichthys stellatus with 16 samples.

Results

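The 6 genes described here, FKBP5, TSC22D3, SGK1, DDIT4, CEBPD and FBXO32, are known from mammals as targets of the glucocorticoid receptor or as genes of muscle wasting. They were found in the authors' assembled transcriptome of the starry flounder (Platichthys stellatus), a flatfish, by gene name: each feature whose closest Swiss-Prot protein, or otherwise its first KEGG ortholog, carried one of the 6 names was kept. This gave 7 features of 16270, because 2 separate features carried the name FKBP5. The names were picked with results of these libraries known, differences between the sexes among them, so the values that set females against males are a description with no test. Total RNA of female and male fish 3 years old was sequenced from brain, liver, gonad and muscle, with 2 libraries for each sex and tissue. The 8 groups were therefore female brain, female liver, female gonad, female muscle, male brain, male liver, male gonad and male muscle. No treatment, strain or stage of the reproductive cycle is given in the labels, nor is the fish behind each library, so any spread between libraries may be technical or biological. Levels are the authors' FPKM, that is, fragments per kilobase of transcript, scaled to the number of fragments in the library.

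Glucocorticoids such as cortisol, the main stress steroid of fish, enter the cell and bind a receptor held ready by heat shock protein 90 and its partner proteins. The loaded receptor moves to the nucleus and switches on a set of genes within hours, some of which then dampen the receptor itself, growth signalling or inflammation. In mammalian muscle the same hormones, fasting and disuse raise ubiquitin ligases that mark proteins for the proteasome.

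The deposited table listed 5134221 counts (female muscle 2) to 12972574 counts (male gonad 2) per library. Each feature in it stood at 0.31 FPKM or more in every library, so no member was at 0 anywhere. The summed level of each tissue's marker list was highest in the labelled tissue in both sexes. Single markers could differ: SYP, of the brain list, had 46.0 and 13.6 FPKM in male muscle against 7.8 and 7.5 FPKM in male brain, Mag was highest in male muscle 2, and RYR1, of the muscle list, had 7.3 and 33.2 FPKM in male brain against 1.0 and 4.6 FPKM in male muscle. The 8 liver marker features, for example, summed to between 39600 and 80200 FPKM in female liver and between 82500 and 87900 FPKM in male liver, against at most 160 FPKM in any library of another tissue. In brain, the 6 marker features summed to 1660 to 2310 FPKM in females, against 390 to 571 FPKM in males. Most of this gap was MBP, with 1370.8 and 1851.9 FPKM in females, against 133.5 and 155.8 FPKM in males. SYP was also higher in female brain, at 10.8 and 13.9 FPKM, whereas GNG13, gja1, slc17a7 and Mag overlapped between the sexes. In muscle, the 7 marker features summed to 263000 to 288000 FPKM in females, against 42900 to 83800 FPKM in males. The hemoglobin feature hbaa, from red blood cells, stood at 514 and 1619 FPKM in female muscle, against 29.6 and 36.0 FPKM in male muscle. It stood at 1630 and 425 FPKM in female liver, against 11.5 and 5.3 FPKM in male liver. In brain hbaa had 1237 and 3941 FPKM in females, against 3.2 and 111 FPKM in males. The other red blood cell feature, cahz, went the other way. It had 23.3 and 26.2 FPKM in female brain against 89.0 and 64.7 FPKM in male brain, 23.0 and 55.2 FPKM in female liver against 67.6 and 73.8 FPKM in male liver, and 32.3 and 25.2 FPKM in female muscle against 89.4 and 80.3 FPKM in male muscle. The sexes thus differed in several of these marker levels, and the part of tissue or blood makeup in the differences below was not tested. In libraries of whole tissue, fewer cells of a type and less RNA per cell cannot be told apart.

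Fkbp5 (TRINITY_DN137691_c1_g1) encodes a co-chaperone of heat shock protein 90 that, in mammals, lowers the affinity of the glucocorticoid receptor for its hormone and is itself switched on by that receptor. It was low in every female library and high in every male library. In brain it stood at 24.1 and 67.9 FPKM in females, against 223 and 728 FPKM in males. In liver it had 62.9 and 25.9 FPKM in females, against 555 and 267 FPKM in males. The lower male library of each tissue lay above both female ones. Gonad gave 8.27 and 18.0 FPKM in females, against 99.2 and 236 FPKM in males. Muscle gave 8.86 and 11.97 FPKM in females, against 109 and 353 FPKM in males. Across tissues, the lowest of the 8 male libraries (99.2 FPKM, gonad) lay above the highest of the 8 female libraries (67.9 FPKM, brain). A complete separation of FPKM in this direction was seen in 113 features, 0.695% of the table. For Fkbp5 it did not hold across tissues with counts scaled by TMM, the library scaling of the edgeR fit. There male gonad 1 lay below female liver 1 and female brain 2, and male gonad 2 just below female liver 1. Within each tissue the males stayed above the females. On the count scale the log2 difference, female minus male, was -3.74 ± 0.84 in muscle, -3.16 ± 0.82 in liver, -3.13 ± 0.81 in brain and -3.12 ± 0.82 in gonad (± SE, from edgeR on 16 libraries). With 1 library of the tissue left out these values ranged from -4.19 to -3.11 in muscle, -4.12 (without female liver 1) to -2.49 (without male liver 1) in liver, -3.95 (without male brain 1) to -2.17 (without male brain 2) in brain and -3.72 (without female gonad 2) to -2.37 (without male gonad 2) in gonad. Mean Fkbp5 FPKM was 9.26 (liver) to 22.2 (muscle) times as high in males. The libraries of a group could be far apart: female brain averaged 46.0 ± 31.0 FPKM and male brain 476 ± 357 FPKM (SD, n = 2 each). Among female groups the brain and liver ranges overlapped, as did those of gonad and muscle, and the first pair lay above the second. Among male groups the order was brain, liver, muscle and gonad, and each group overlapped the next.

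The second feature with this name, FKBP5 (TRINITY_DN123707_c0_g1), behaved unlike the first. Its similarity score to the Swiss-Prot FKBP5 protein was 181, against 422 for the first feature. Its closest protein in the wider database is called FK506-binding protein-like and not FKBP5, so it may be another member of that family. It was highest in gonad in both sexes. Gonad stood at 17.7 and 20.2 FPKM in females, against 10.5 and 7.20 FPKM in males. Brain stood at 3.89 and 3.81 FPKM in females, against 4.33 and 3.73 FPKM in males. Outside the gonad no library passed 4.33 FPKM. Liver had 2.86 and 2.40 FPKM in females, against 1.18 and 1.28 FPKM in males. Muscle had 2.22 and 1.81 FPKM in females, against 1.57 and 1.99 FPKM in males. The female libraries lay above the male ones in gonad and liver, and the sexes overlapped in brain and muscle. The log2 differences, female minus male, were 1.77 ± 0.38 in gonad and 1.36 ± 0.40 in liver. In females the order was gonad, brain, liver and muscle, in males gonad, brain, muscle and liver, with no overlap between neighbours in either.

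**Figure D1:**
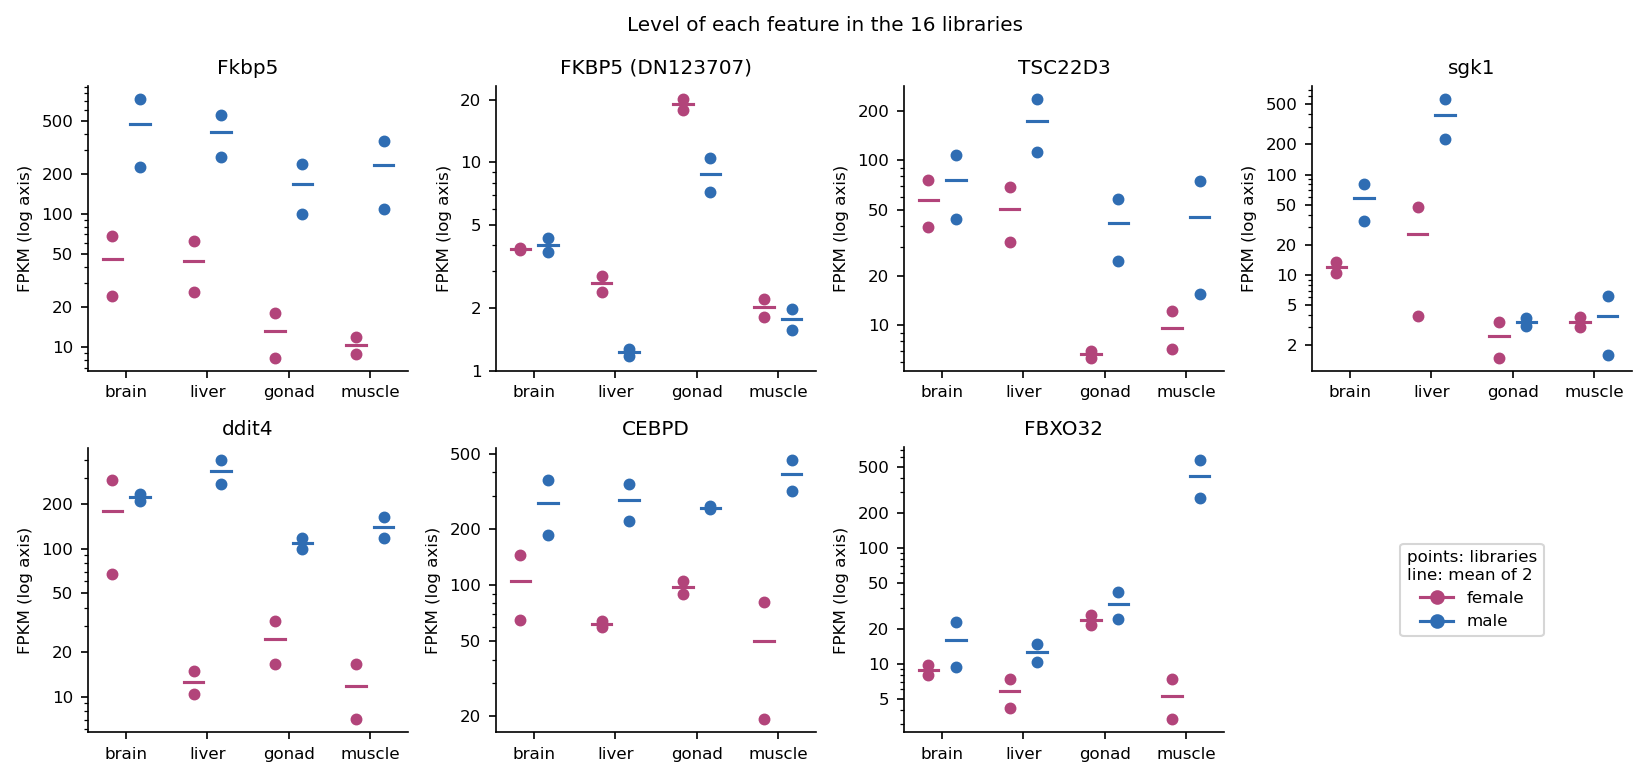
FPKM (log axis) of the 7 features in the 16 libraries, by tissue, with female groups left of male groups; points are libraries and short lines the means of 2. Fkbp5 and CEBPD separate the sexes in each tissue, FBXO32 is far higher in male muscle than elsewhere, and the second FKBP5 feature is highest in female gonad.

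TSC22D3 (TRINITY_DN147969_c1_g2), also called GILZ, encodes a leucine zipper protein that carries part of the anti-inflammatory action of glucocorticoids in mammalian immune cells. It was highest in male liver, with 31.8 and 69.1 FPKM in female liver, against 236 and 112 FPKM in male liver. Gonad had 6.99 and 6.32 FPKM in females, against 24.6 and 58.6 FPKM in males. Muscle had 12.2 and 7.20 FPKM in females, against 15.4 and 75.0 FPKM in males. Male libraries lay above female ones in these 3 tissues, though in muscle the lower male library was close to the females. Brain had 76.1 and 39.7 FPKM in females, against 43.9 and 107 FPKM in males, with the ranges overlapping. The log2 differences, female minus male, were -1.97 ± 0.69 in gonad, -1.75 ± 0.66 in liver and -1.42 ± 0.69 in muscle. Brain gave 0.61 ± 0.65, a sign that depended on the scaling: it was -0.04 with libraries scaled by their recovered totals and -0.32 on the FPKM scale. It was also -0.30 without female brain 1. Leaving out 1 library moved the other values to -0.96 in liver (without male liver 1), -1.27 in gonad (without male gonad 2) and -0.45 in muscle (without male muscle 2). The effective length implied by its counts and FPKM, 315 to 494 bases, was far below its assembled length of 2389 bases, so its FPKM rests on shorter isoforms than the listed length. Implied lengths were also well below the assembled ones for Fkbp5 (3354 to 4384 of 8872 bases) and sgk1 (973 to 1458 of 2749 bases). The same held for ddit4 (1413 to 1492 of 2372 bases) and FBXO32 (1129 to 2801 of 4229 bases).

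SGK1 (sgk1, TRINITY_DN146041_c1_g1) encodes a serine/threonine kinase that is switched on by glucocorticoids and mineralocorticoids and regulates ion channels and transporters. It was the member with the widest range, 380.5-fold over the 16 libraries, and this came from liver. Liver stood at 3.86 and 47.4 FPKM in females, against 567 and 226 FPKM in males. Brain stood at 13.6 and 10.5 FPKM in females, against 81.5 and 34.3 FPKM in males. In both tissues the male libraries lay above the female ones, and the 2 female livers were themselves more than 10 times apart. In gonad sgk1 had 1.49 and 3.39 FPKM in females, against 3.74 and 3.09 FPKM in males. In muscle it had 3.83 and 3.03 FPKM in females, against 1.58 and 6.22 FPKM in males. The sexes overlapped in gonad and muscle, where the gene was low. The log2 difference, female minus male, was -3.96 ± 0.91 in liver and -1.65 ± 0.83 in brain. The liver value was -6.21 without female liver 2 and -2.90 without male liver 1, and the brain value -0.89 without male brain 1 and -2.40 without male brain 2. It was 0.16 ± 0.86 in gonad and 0.45 ± 0.87 in muscle, values that turned to -0.53 and -0.32 when libraries were scaled by their recovered totals. Without female gonad 2 the gonad value was -0.79.

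DDIT4 (ddit4, TRINITY_DN134908_c0_g2), also called REDD1, is a stress protein that restrains the growth kinase complex mTORC1 through the TSC proteins. In liver it had 10.4 and 14.8 FPKM in females, against 394 and 272 FPKM in males. In muscle it had 7.01 and 16.7 FPKM in females, against 117 and 164 FPKM in males. In gonad it had 16.5 and 32.3 FPKM in females, against 100.1 and 118 FPKM in males. In these 3 tissues the sexes stood well apart. Brain was different, with 66.9 and 291 FPKM in females, against 210.2 and 235 FPKM in males, so that the male libraries lay between the female ones. On the count scale the log2 difference, female minus male, was -4.55 ± 0.66 in liver, -2.84 ± 0.62 in muscle and -1.52 ± 0.59 in gonad. Mean FPKM in liver was 26.4 times as high in males. In brain the log2 difference was 0.19 ± 0.57, and -0.32 with libraries scaled by recovered totals. It was -1.02 without female brain 2 and 0.84 without female brain 1. The muscle value was -3.71 without female muscle 2 and -2.31 at its weakest over the settings run. The liver value lay between -4.86 and -4.14 with any liver library left out. Among females brain lay above the other tissues, while liver overlapped muscle and muscle overlapped gonad. Males ran in the order liver, brain, muscle and gonad, the last pair overlapping.

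CEBPD (TRINITY_DN149312_c4_g1) encodes a transcription factor of the CCAAT/enhancer-binding family that responds to glucocorticoids and inflammatory signals. Apart from the second FKBP5 feature it had the narrowest range of the members, 24.2-fold over the 16 libraries, and stood at 19.2 FPKM or more in each. Muscle stood at 81.2 and 19.2 FPKM in females, against 317 and 463 FPKM in males. Liver stood at 59.9 and 64.7 FPKM in females, against 346 and 221 FPKM in males. Both tissues had the male libraries several times above the female ones. Gonad gave 89.9 and 105 FPKM in females, against 263 and 255 FPKM in males. Brain gave 65.2 and 145 FPKM in females, against 184 and 365 FPKM in males. As for Fkbp5, by FPKM the lowest male library (184 FPKM) lay above the highest female library (145 FPKM), both of brain. With TMM-scaled counts this did not hold, as male brain 1 and both male gonad libraries lay below female brain 2 and female muscle 1. Within a tissue, the sexes then overlapped in brain. The log2 differences, female minus male, were -2.33 ± 0.57 in muscle, -1.96 ± 0.56 in liver, -0.82 ± 0.55 in brain and -0.75 ± 0.55 in gonad. The muscle value was -3.55 without female muscle 1 and -1.67 without female muscle 2. The brain value was -1.41 without male brain 1, -0.43 without male brain 2 and -0.44 without female brain 1. By FPKM the male groups differed little among tissues, with mean levels from 259 ± 5.45 FPKM in gonad to 390 ± 104 FPKM in muscle (SD, n = 2 each). With TMM-scaled counts they stood further apart, both male muscle libraries being several times above both male gonad libraries.

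FBXO32 (TRINITY_DN131817_c0_g1), known as atrogin-1 or MAFbx, encodes the F-box subunit of a ubiquitin ligase that rises in wasting mammalian muscle. It was far higher in male muscle than in any other group. Muscle stood at 7.31 and 3.30 FPKM in females, against 268 and 564 FPKM in males. These values rest on 120 and 66 counts in female muscle, against 6388 and 8904 counts in male muscle. No other library of either sex passed 41.6 FPKM. Gonad had 21.6 and 26.1 FPKM in females, against 24.0 and 41.6 FPKM in males. Liver had 7.38 and 4.18 FPKM in females, against 14.9 and 10.3 FPKM in males. Brain had 9.79 and 7.94 FPKM in females, against 9.40 and 22.7 FPKM in males. By FPKM male liver lay above female liver, and the sexes overlapped in gonad and brain. With TMM-scaled counts they overlapped in liver as well. The log2 difference, female minus male, was -5.39 ± 0.70 in muscle, a male level 42.0 times the female one by counts. The ratio of mean FPKM was 78.4. FPKM is scaled by library totals and not by TMM, and with libraries scaled by recovered totals the log2 difference from counts was -6.02, against -5.39 with TMM. FPKM also divides by an effective length, which was 1700 and 2003 bases in female muscle and 2008 and 1245 bases in male muscle. With any muscle library left out the difference lay between -5.82 and -5.07. In the other tissues the log2 difference was -0.29 ± 0.58 (liver), 0.49 ± 0.58 (gonad) and 0.72 ± 0.58 (brain). The liver value was -1.43 without female liver 1 and 0.37 without male liver 1. The sign in gonad turned to -0.20 with libraries scaled by recovered totals, and that in brain to -0.68 on the FPKM scale. By FPKM female muscle thus had the lowest mean FBXO32 level of the 8 groups (5.31 FPKM) and male muscle the highest. Female muscle overlapped female liver (mean 5.78 FPKM), and with TMM-scaled counts the mean of male brain lay below that of female muscle. The KEGG ortholog assigned to the feature covers FBXO25 and FBXO32 together, which are close relatives.

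Set side by side, the 7 features did not share a single pattern between the sexes. Both male FPKM values lay above both female ones for 3 of 7 features in brain (48.7% of all features did), 6 of 7 in liver (28.1%), 4 of 7 in gonad (52.2%) and 5 of 7 in muscle (43.1%). Fkbp5 and CEBPD did so in all 4 tissues, as did 6.31% of all features. These are counts of FPKM: with TMM-scaled counts the sexes overlapped for CEBPD in brain and for FBXO32 in liver. For TSC22D3 and ddit4 both male FPKM values lay above both female ones in 3 tissues, and 25.9% of all features showed this in at least 3. Both female values lay above both male ones for 1 feature, the second FKBP5, in liver (17.5% of all features) and in gonad (25.6%). In edgeR the adjusted p fell below 0.05 for 1 of 7 in brain (39.8% of all features), 2 of 7 in liver (2.78%), 4 of 7 in gonad (47.1%) and 4 of 7 in muscle (2.96%). By direction, 1 was lower in females in brain (18.4% of all features), 2 in liver (1.33%), 3 in gonad (23.8%) and 4 in muscle (1.75%), and 1 was higher in gonad (23.3%). The features were Fkbp5 in brain, sgk1 and ddit4 in liver, and Fkbp5, ddit4, CEBPD and FBXO32 in muscle. In gonad they were Fkbp5, TSC22D3 and ddit4, lower in females, and the second FKBP5 feature, higher in females. Because the genes were picked knowing such differences, nothing is read from these counts. The median log2 difference of the 7 features, female minus male, was -2.33 in muscle, -1.96 in liver, -0.75 in gonad and 0.19 in brain, against -0.02, 0.03, -0.02 and 0.12 over all features in the same order of tissues. Scaling mattered for values near 0: with libraries scaled by recovered totals the median over all features was -0.70 in muscle, -0.20 in liver, -0.72 in gonad and -0.46 in brain. The split of all features called higher and lower in females moved with it, from 3475 and 2996 to 1714 and 4343 in brain, and from 3795 and 3866 to 1885 and 5668 in gonad. In liver it moved from 237 and 216 to 116 and 184, and in muscle from 196 and 285 to 108 and 1985.

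**Figure D2:**
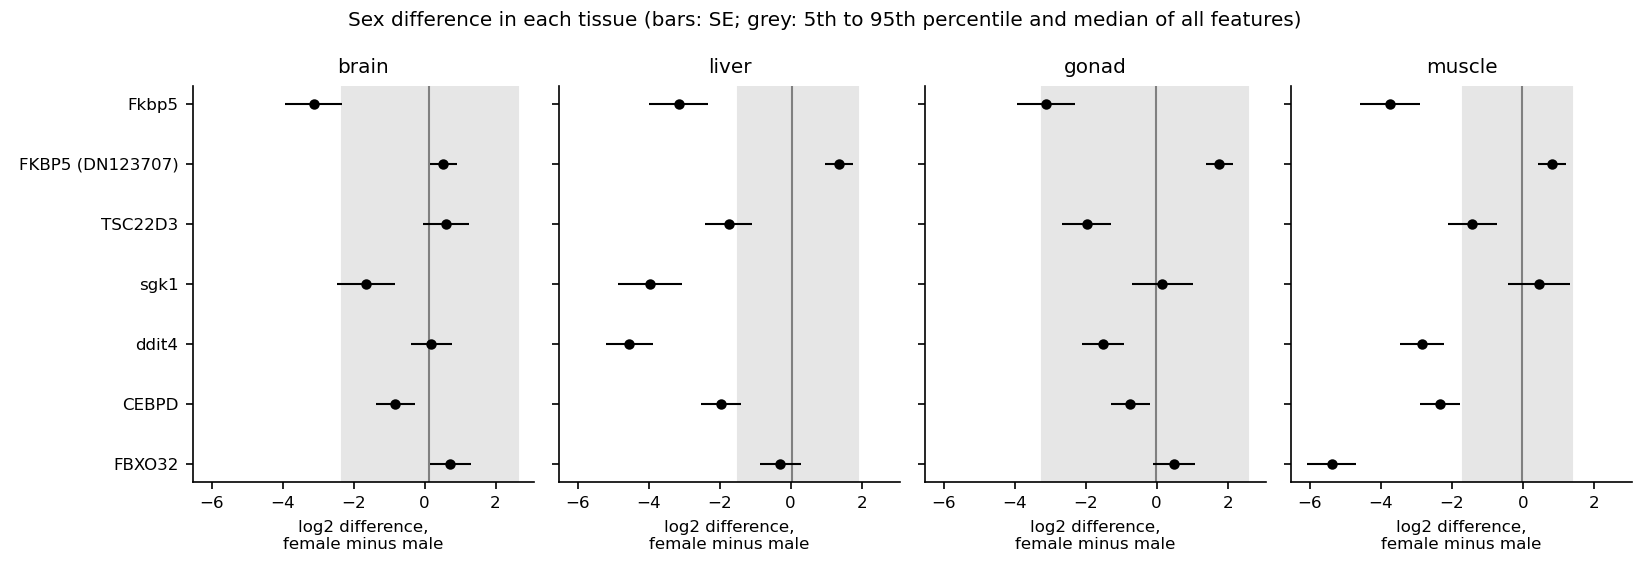
Log2 difference, female minus male, of each feature in each tissue (points, edgeR on counts; bars, SE), over a grey band from the 5th to the 95th percentile of all 16270 features with their median as a line. Fkbp5 lies between -3.12 and -3.74 in each tissue, whereas sgk1, ddit4 and FBXO32 lie near the median in some tissues and at -3.96 (liver), -4.55 (liver) and -5.39 (muscle) in others.

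How far the sex difference varied with tissue was taken from an interaction. In the F test of the 3 interaction terms between sex and tissue, 3 of 7 features (sgk1, ddit4 and FBXO32) had an adjusted p below 0.05, as did 39.6% of all features. The members were picked on such values, so nothing is read from this count, and the spans that follow are a description. The sgk1 difference spanned 4.41 on the log2 scale between its most negative tissue, liver, and its most positive, muscle. For ddit4 the span was 4.74, from liver to brain, and for FBXO32 it was 6.11, from muscle to brain.

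Tissues were then compared by edgeR as averages over both sexes, each tissue against the mean of the other 3, with p-values adjusted over all 16270 features by Benjamini-Hochberg. Results of these same libraries were known when the members were picked, so these adjusted p-values are a description as well. Scaling by recovered totals moved the split of all features called higher and lower in a tissue, from 3543 and 3487 to 5124 and 1562 in brain, and from 3906 and 3618 to 1786 and 8264 in liver. In gonad it moved from 4799 and 4992 to 9503 and 1585, and in muscle from 3537 and 3797 to 1578 and 8006. In liver 3 of 7 features rose (24% of all features were called higher, and 46.2% in either direction). The largest rise was that of sgk1, by 4.71 ± 0.44 (adjusted p = 1.56e-06), followed by TSC22D3 at 2.68 ± 0.34 (adjusted p = 3.12e-05) and Fkbp5 at 1.85 ± 0.40 (adjusted p = 0.002). The kinase gene and the GILZ gene also had their highest group means in male liver. For Fkbp5 the liver call was lost in limma on log2(FPKM + 1), with an adjusted p of 0.077, and on log2(FPKM + 0.1), with 0.0822. The sgk1 value was 3.58 without female liver 2, and it passed the threshold in every setting run. The 3 features also passed the threshold in each sex taken alone, a split added after the data were seen. It was a contrast within the fit of all 16 libraries, with the spread estimated from both sexes. In it 32.6% of all features were called in females and 28.5% in males. There sgk1 was higher in liver by 2.90 ± 0.61 in females (adjusted p = 0.00298) and by 6.52 ± 0.64 in males (adjusted p = 6.56e-06). The female value leans on female liver 2 (47.4 FPKM), since female liver 1 (3.86 FPKM) lay below both female brains and level with female muscle 1 (3.83 FPKM). Fkbp5 was higher by 1.93 ± 0.57 in females (adjusted p = 0.0188) and by 1.77 ± 0.57 in males (adjusted p = 0.0316). TSC22D3 was higher by 2.27 ± 0.49 in females (adjusted p = 0.00363) and by 3.09 ± 0.48 in males (adjusted p = 0.000312).

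In gonad 6 of 7 features differed from the other tissues (60.2% of all features did, 29.5% being higher and 30.7% lower). The second FKBP5 feature rose by 1.34 ± 0.21 (adjusted p = 9.54e-05). The other 5 fell, with log2 differences of -3.85 ± 0.61 for sgk1 (adjusted p = 0.000121), -2.61 ± 0.45 for TSC22D3 (adjusted p = 0.000229) and -2.26 ± 0.50 for Fkbp5 (adjusted p = 0.00163). They were -1.76 ± 0.37 for ddit4 (adjusted p = 0.00108) and -0.98 ± 0.33 for CEBPD (adjusted p = 0.0214). FBXO32 differed by -0.20 (adjusted p = 0.628). The median of all features in gonad was -0.08 with TMM scaling and 1.01 with recovered totals, a larger shift than in the other tissues. Under recovered totals CEBPD in gonad turned to 0.11, ddit4 missed the threshold (adjusted p = 0.103) and FBXO32 rose by 0.92 (adjusted p = 0.0107). The CEBPD call was also lost with the omission of any one gonad library: female gonad 1 (adjusted p = 0.0786), female gonad 2 (0.0533), male gonad 1 (0.0634) or male gonad 2 (0.0629). On the log2(FPKM + 1) scale Fkbp5 and ddit4 in gonad had adjusted p-values of 0.0585 and 0.146 in limma. The rise of the second FKBP5 feature and the falls of sgk1 and TSC22D3 passed the threshold in each sex alone, where 61.6% of all features were called in females and 29.4% in males.

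In muscle 2 of 7 features were called (45.1% of all features, 21.7% being higher and 23.3% lower). FBXO32 rose by 2.25 ± 0.31 (adjusted p = 6.49e-05) and sgk1 fell by 1.90 ± 0.55 (adjusted p = 0.0119). The FBXO32 average came from males. Taken alone, females gave -0.60 ± 0.50 (adjusted p = 0.365) and males 5.10 ± 0.44 (adjusted p = 2.86e-06). Of all features, 37.4% were called in females alone and 33.4% in males alone. The sgk1 call was lost without female muscle 1 (adjusted p = 0.0564) and without male muscle 1 (adjusted p = 0.0582). With libraries scaled by recovered totals 5 features were called in muscle, the second FKBP5 feature, ddit4 and TSC22D3 also being lower.

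In brain 2 of 7 features were called (43.2% of all features, 21.8% being higher and 21.4% lower). The stress gene ddit4 rose by 1.54 ± 0.31 (adjusted p = 0.00132; 0.94 without female brain 2) and FBXO32 fell by 1.34 ± 0.36 (adjusted p = 0.00941). Here too the sexes were unlike: ddit4 was higher in brain by 3.12 ± 0.43 in females (adjusted p = 0.000117), whereas in males the difference was -0.04 ± 0.47 (adjusted p = 0.958). For TSC22D3 the female difference was 1.97 ± 0.50 (adjusted p = 0.00777) and the male one -0.36 ± 0.54 (adjusted p = 0.644). For FBXO32 the female difference was -0.11 ± 0.48 (adjusted p = 0.873) and the male one -2.56 ± 0.56 (adjusted p = 0.0043). The male FBXO32 value is set against a mean that includes male muscle, the group where the gene was highest. Within brain itself the FBXO32 difference, female minus male, was 0.72 ± 0.58. Of all features, 37.3% were called in females alone and 29.1% in males alone. The FBXO32 call in the average over sexes was lost without female brain 2 (adjusted p = 0.0616) and without male brain 1 (adjusted p = 0.0675). With recovered totals 5 features were called in brain, Fkbp5, sgk1 and TSC22D3 also being higher.

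**Figure D3:**
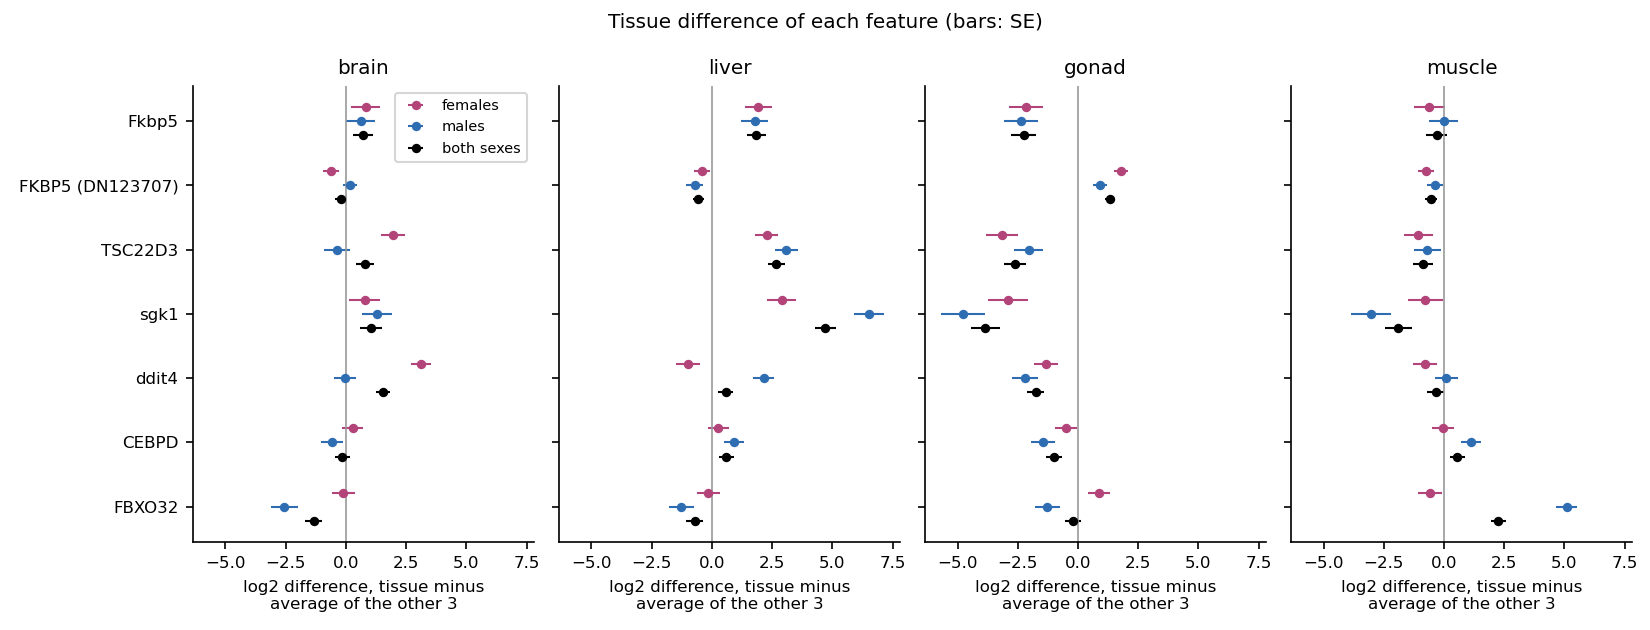
Log2 difference of each feature between a tissue and the average of the other 3 (points, edgeR; bars, SE), in females, in males and averaged over both sexes. The sgk1 and TSC22D3 points lie above 0 in liver in both sexes, while FBXO32 in muscle stands at -0.60 in females and 5.10 in males.

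Within groups, the 2 libraries did not always differ together. The library of a pair with the higher Fkbp5 level also had the higher ddit4 level in 7 of 8 groups, the higher FBXO32 level in 6 and the higher CEBPD level in 5. For TSC22D3 this held in 4 groups, and for sgk1 and the second FKBP5 feature in 3. These counts of groups rest on FPKM. In male muscle, the library with more Fkbp5 (353 against 109 FPKM), male muscle 2, also had the higher FPKM of TSC22D3, sgk1, ddit4, CEBPD and FBXO32. With TMM-scaled counts Fkbp5, TSC22D3 and sgk1 were still higher in male muscle 2, but ddit4, CEBPD and FBXO32 were higher in male muscle 1. Male muscle 2 held more of the leukocyte markers as well, with ptprc at 53.3 against 5.2 FPKM and CD74 at 1115 against 244 FPKM. The part of these cells in the pair's difference was not tested. Over the 4 leukocyte features the sum ran from 210 to 224 FPKM in female muscle and from 260 to 1270 FPKM in male muscle. It ran from 53.5 to 157 FPKM in female gonad and from 547 to 4100 FPKM in male gonad. In liver the sum ran from 958 to 7730 FPKM in females and from 831 to 1900 FPKM in males, of which 7530 FPKM in female liver 2 and 1698 FPKM in male liver 1 came from a feature whose name LCP1 is that of a lobster cysteine proteinase and not of the leukocyte protein. CD74 led the sum in the other liver libraries.

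Over the 16 libraries, Pearson's r of log2(FPKM + 1) was highest between Fkbp5 and ddit4 (0.84), Fkbp5 and CEBPD (0.83), TSC22D3 and sgk1 (0.78) and ddit4 and CEBPD (0.78). FBXO32 was closest to CEBPD (0.69), and both FKBP5 features together gave -0.35. These values describe 16 libraries that share tissues and sexes and are given with no test. By the same measure the named features most like Fkbp5 were TFE3 (0.93), encoding a transcription factor of lysosome genes, Klf16 (0.93) and Fosl2 (0.92), which encodes a subunit of the AP-1 transcription factor. Those most like FBXO32 were psme4a (0.94), encoding a proteasome activator, the ubiquitin ligase UBE3C (0.91) and the proteasome subunit Psma4 (0.91). TSC22D3 was nearest to ttyh2l (0.92), PICALM (0.91) and SQSTM1 (0.91), the last encoding an autophagy receptor. The closest to sgk1 were FAM114A1 (0.89), LRP1 (0.86) and id3-a (0.85), and the closest to CEBPD were Clcn5 (0.87), Flcn (0.86) and Atg2b (0.85). CDKN1C (0.90), an inhibitor of cell division, led those nearest to ddit4, before Klf16 (0.87) and GAB1 (0.87). The second FKBP5 feature followed another copy of Fbxo30 (TRINITY_DN129396_c0_g1), ube2c, which acts in mitotic protein degradation, and rbm42, each at 0.98.

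**Figure D4:**
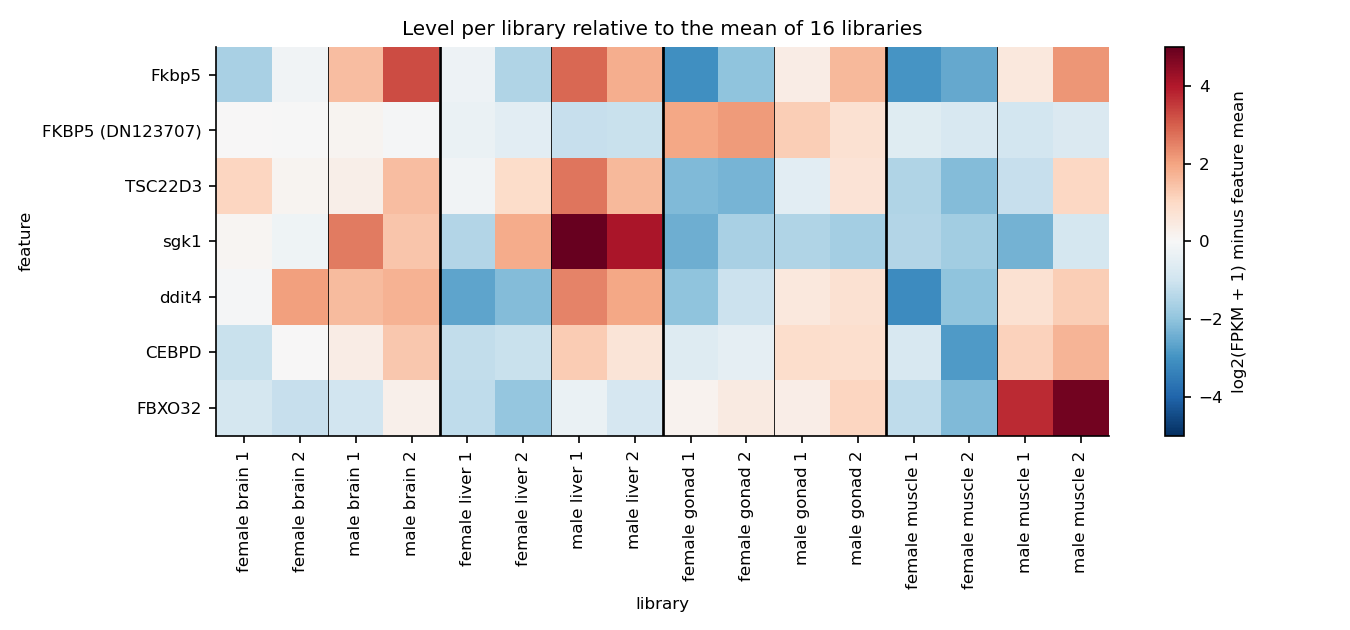
Level of each feature in each library as log2(FPKM + 1) minus the mean of that feature over the 16 libraries (colour), with libraries grouped by tissue, females left of males. The male liver pair stands out for sgk1, the male muscle pair for FBXO32, and the gonad libraries for the second FKBP5 feature.

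The genes around the members were described from 5 lists. The machinery of the glucocorticoid receptor gave 25 features. The name of the receptor itself, nr3c1, was carried by 2 features, which are named here after their values were seen. One (TRINITY_DN146490_c1_g2) had 109 and 131 FPKM in female gonad, against 40.5 and 41.1 FPKM in male gonad, a log2 difference of 1.44 (edgeR adjusted p = 0.00809). The other (TRINITY_DN124093_c0_g3) had 0.97 and 1.20 FPKM in female gonad, against 11.7 and 18.3 FPKM in male gonad, a difference of -3.27 (edgeR adjusted p = 0.000247). The 2 features named nr3c1 therefore differed between ovary and testis in opposite directions. In brain their differences were 0.63 (edgeR adjusted p = 0.196) and -1.41 (0.0266), the second feature being lower in females. In liver they were 0.24 (edgeR adjusted p = 0.734) and -0.29 (0.728), and in muscle 0.11 (0.903) and 0.05 (0.969). The second nr3c1 feature shares the assembly identifier TRINITY_DN124093_c0 with a feature named nr3c2, so which receptor it belongs to was not settled. That nr3c2 feature differed by -2.19 in gonad, -2.09 in brain, -0.60 in liver and 1.20 in muscle. Hsd11b2, whose product inactivates cortisol and which is also named after its values were seen, had 1.89 and 1.16 FPKM in female brain, against 6.75 and 37.5 FPKM in male brain (edgeR log2 difference -2.96, adjusted p = 0.0126). Its difference was -2.59 in liver (edgeR adjusted p = 0.0807), -2.22 in muscle (0.132) and -1.96 in gonad (0.0552). Both male FPKM values lay above both female ones in all 4 tissues, as for 6.31% of all features.

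Named features of these lists stand for single assembled copies, and other copies of the same name could differ. The lists were chosen with earlier results of these data known. Genes are named for the largest called differences in these same libraries, so their adjusted p-values are a description and not a test. In liver, where 1.33% of all features were called lower in females and 1.46% higher, 1 of the 25 receptor-machinery features passed the threshold between the sexes: hsp90a.1, a heat shock protein 90 gene, stood at 12.4 ± 9.49 FPKM in females, against 64.0 ± 15.3 FPKM in males (SD, n = 2 each; edgeR adjusted p = 0.0417). Of 26 features of other genes induced by glucocorticoids, 2 were lower in female liver and 0 higher. DUSP1, a phosphatase that switches off stress kinases, had 3.67 ± 2.78 FPKM in females, against 63.9 ± 8.37 FPKM in males, a log2 difference of -3.88 ± 0.60 (edgeR adjusted p = 0.0074). The clock gene PER1 had 20.0 ± 12.4 FPKM in females, against 185 ± 166 FPKM in males, -2.94 ± 0.54 (edgeR adjusted p = 0.0155). Of 45 features of other atrophy and proteolysis genes, 2 were lower in female liver, the transcription factor gene FOXO4 (-2.36 ± 0.47, edgeR adjusted p = 0.0238) and the ubiquitin gene UBB (TRINITY_DN129468_c6_g1, -2.21 ± 0.52, adjusted p = 0.0411), whose other 2 copies gave -0.71 and -1.27. Of 31 features of mTORC1 and its regulators, 0 passed the threshold in liver in edgeR, 5 had an unadjusted p below 0.05, and DESeq2 called 1 higher and 1 lower. Of 29 paralogs of the members, 1 copy of Tsc22d1 (TRINITY_DN149103_c5_g1, -2.93 ± 0.65, edgeR adjusted p = 0.0353) and 1 of TSC22D2 (TRINITY_DN135684_c0_g2, -2.82 ± 0.54, adjusted p = 0.0189) were lower in female liver. The other 3 TSC22D1 copies differed by 0.99, 0.65 and -0.45, and the other 3 TSC22D2 copies by -3.23, -0.55 and 0.90, without passing. Of these 7 liver genes 0 passed without female liver 1 (adjusted p from 0.0837 to 0.348), 1 (DUSP1) passed without male liver 1 (the others from 0.137 to 0.253) and 6 without male liver 2 (hsp90a.1 at 0.166). Leaving out a library of another tissue made at most 2 of the 7 miss the threshold, at an adjusted p of up to 0.0603. In limma 4 of the 7 missed it with either pseudocount (adjusted p up to 0.135 and 0.142), and with recovered totals 1 did (0.0503).

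In muscle each of the 5 lists held 1 to 3 features that were lower in females and 0 that were higher, where 1.75% of all features were lower and 1.2% higher. The heat shock protein 90 gene hsp90ab1 had 101 ± 18.6 FPKM in female muscle, against 1060 ± 392 FPKM in male muscle, -2.68 ± 0.51 (edgeR adjusted p = 0.0151). Of the other glucocorticoid-induced features 2 of 26 fell, glutamine synthetase GLUL (-3.13 ± 0.55, edgeR adjusted p = 0.0105) and a copy of the receptor kinase gene Mertk (TRINITY_DN146254_c0_g1, -2.29 ± 0.57, adjusted p = 0.0478), whose other 2 copies gave -2.79 and -1.12. GLUL stood at 4.12 ± 0.438 FPKM in female muscle, against 45.3 ± 39.9 FPKM in male muscle. Of the atrophy and proteolysis features 3 of 45 fell: Fbxo30 (TRINITY_DN133638_c2_g2), Bnip3 and Usp14. The product of Fbxo30 is a ubiquitin ligase subunit of wasting mouse muscle, and it had 3.30 ± 1.29 FPKM in female muscle, against 46.0 ± 28.3 FPKM in male muscle, -2.79 ± 0.41 (edgeR adjusted p = 0.00583). Bnip3, encoding a receptor for the removal of mitochondria, differed by -2.48 ± 0.52 (edgeR adjusted p = 0.0233), and Usp14 (TRINITY_DN147334_c0_g2), a proteasome-bound deubiquitinase, by -2.34 ± 0.54 (adjusted p = 0.0364), its other copy by -1.23. The other Fbxo30 copy, TRINITY_DN129396_c0_g1, stood at 1.19, the opposite sign. Of the mTORC1 list 2 of 31 fell, a copy of the autophagy kinase gene ULK1 (TRINITY_DN145276_c1_g2, -2.57 ± 0.63, edgeR adjusted p = 0.0438) and a copy of Tsc1 (TRINITY_DN132379_c3_g1, -1.88 ± 0.46, adjusted p = 0.0426), whose product acts downstream of DDIT4. The other copy of ULK1 gave 0.51 and those of Tsc1 -1.41, -0.11 and -0.26. Among paralogs CEBPE fell (-3.89 ± 0.93, edgeR adjusted p = 0.0403). Fbxo30 alone of these 9 passed with each of the 4 muscle libraries left out in turn (adjusted p from 0.00981 to 0.0498). Without female muscle 1 or female muscle 2, 8 of 9 missed the threshold (adjusted p from 0.0598 to 0.3), without male muscle 1, 5 did (up to 0.311), and without male muscle 2, 4 did (up to 0.109). Leaving out a library of another tissue made at most 5 of the 9 miss it, at up to 0.0713. In limma 1 of the 9 missed it with either pseudocount (0.0504 and 0.0648).

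With libraries scaled by recovered totals the muscle counts of features lower in females were 7 of 25 for the receptor machinery, 8 of 26 for other induced genes, 19 of 45 for atrophy and proteolysis, 6 of 31 for mTORC1 and 3 of 29 for paralogs, with 0 higher in each list. The lists' median log2 differences in muscle, female minus male, lay between -0.23 (paralogs) and -0.72 (other induced genes) with TMM scaling, against -0.02 over all features. In liver they lay between -0.72 (receptor machinery) and 0.30 (paralogs), against 0.03 over all features.

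Between female and male brain, the receptor machinery had 1 feature higher and 14 lower, where 21.4% of all features were higher and 18.4% lower, and a median of -1.90 against 0.12 over all features. The other lists were more even there, with 3 higher and 5 lower (other induced genes), 6 and 6 (atrophy), 5 and 7 (mTORC1) and 4 and 6 (paralogs). In gonad the counts higher and lower in females were 2 and 16, 6 and 10, 11 and 8, 4 and 11, and 7 and 9 in the same order of lists. Of all features 23.3% were higher there and 23.8% lower. With recovered totals the list counts were 0 and 16, 1 and 5, 2 and 11, 2 and 13, and 0 and 10 in brain. In gonad they were then 1 and 19, 4 and 14, 6 and 14, 3 and 14, and 4 and 13. All features then had 1714 higher and 4343 lower in brain, and 1885 and 5668 in gonad.

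Between tissues, as averages over both sexes in edgeR, the atrophy and proteolysis list had 28 of 45 features higher in muscle and 4 lower, beside the rise of FBXO32. The mTORC1 list had 17 of 31 higher in muscle and 2 lower, where 21.7% of all features were higher and 23.3% lower. The receptor machinery had 16 of 25 higher in liver and 4 lower (24% and 22.2% of all features), and 1 higher and 19 lower in gonad (29.5% and 30.7%). The other induced genes had 12 of 26 higher in liver and 4 lower, and 3 higher and 15 lower in gonad. These splits moved with the scaling, as did those of all features. With recovered totals the atrophy list had 9 higher and 6 lower in muscle, and the mTORC1 list 11 and 6. Of all features 1578 were then higher in muscle and 8006 lower. The receptor machinery then had 6 and 6 in liver and 4 and 7 in gonad, and the other induced genes 11 and 11 in liver and 7 and 5 in gonad. All features then had 1786 higher and 8264 lower in liver, and 9503 and 1585 in gonad.

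**Figure D5:**
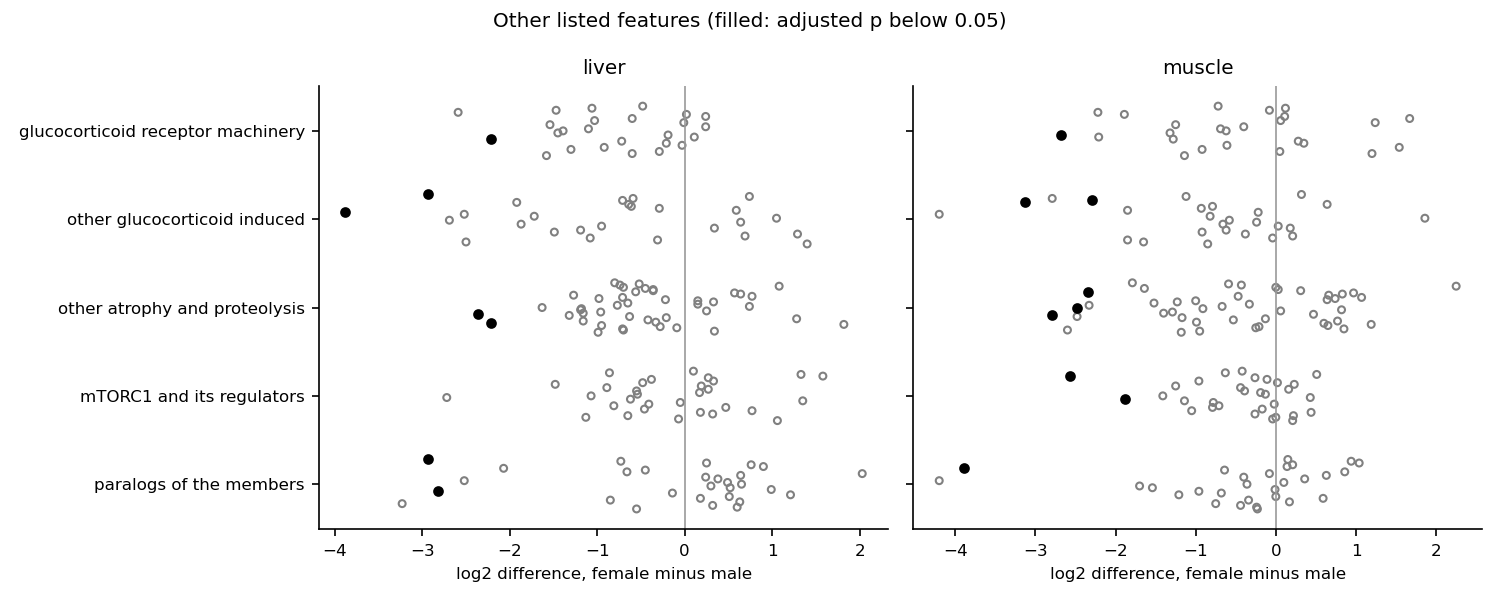
Log2 difference, female minus male, in liver and in muscle for each feature of the 5 lists of related genes (circles; filled where the edgeR adjusted p is below 0.05). The filled circles, 7 in liver and 9 in muscle, lie below 0, and most features are open.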

How the data were processed

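The deposited table holds, per the file headers, an expected count and an FPKM for each library and assembled feature; the authors estimated expected counts with RSEM, per the submitters' processing notes, with aligner, strand setting and versions not given in the sources used. Extraction was with Trizol, per the labels' protocols, which describe 24 libraries; 16 are listed and used, and 16 further value columns belong to no listed sample and were not used. The series text names pituitary where the sample labels name muscle, and the labels were followed.

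Expected counts were rounded and tested with edgeR 4.0.16 (R 4.3.3): quasi-likelihood F tests, two-sided, TMM scaling (factors 0.623 to 1.845), 1 mean per group, 8 residual degrees of freedom, no filter, Benjamini-Hochberg over 16270 features, threshold 0.05. The SE restates the test: it is the size of the log2 difference divided by the root of F. Libraries of several tissues may share a fish. FPKM is the deposited value. The table lists 51.4 to 80.4% of the fragments of a library, by totals recovered from count and FPKM (9659176 to 16642949). Only the edgeR fit with TMM scaling was run on simulated counts, for the liver comparison between the sexes and the interaction. The alternatives below were not. Alternatives were DESeq2 1.42.0, recovered totals, a mean of at least 50 counts, and limma 3.58.1 on log2(FPKM + 1) and log2(FPKM + 0.1). Others were a replicate block, the libraries of a tissue alone and each library left out. Each sex alone, added after the data were seen, was a contrast within the main fit of 16 libraries and not a new fit.

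Members and lists were chosen with earlier results of these data known. The lists, with symbols, symbols matched and features without members, were receptor machinery (16, 13, 25), other glucocorticoid-induced genes (32, 21, 26), other atrophy and proteolysis genes (36, 26, 45), mTORC1 (24, 18, 31) and paralogs (22, 17, 29). All members are named. Up to 4 called features per list are named, for liver and muscle between the sexes only, with the 3 named features nearest to each member. Marker lists (features: brain 6, liver 8, muscle 7, gonad 2, red blood cell 2, leukocyte 4) are given as sums. The gonad markers summed to 169 to 247 FPKM in female gonad and 353 to 417 FPKM in male gonad. Replicates of a group differed by more than sampling noise (chi-square per degree of freedom 31.4 to 133.7). Female liver 2 was most like male liver 1, and male muscle 1 most like female muscle 1; the other 14 libraries were most like their own replicate.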

Additional observations from a re-analysis of the deposited data

Results flagged for a closer look

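Of the features named, 12 genes of the lists and 3 members had a sex difference that varied among the 4 tissues in edgeR's interaction test, which 39.6% of all features passed. The listed genes were named for a sex difference in liver or muscle, and the members were picked with sex differences known, so no test is read from them. For the members the span of the log2 difference (female minus male) between tissues was 4.41 for sgk1, 4.74 for ddit4 and 6.11 for FBXO32. Among listed genes of the receptor machinery and of glucocorticoid response, the span was 3.45 for hsp90ab1, 3.66 for DUSP1, 6.36 for GLUL and 7.14 for PER1. For atrophy and proteolysis genes it was 2.81 for UBB, 3.05 for Bnip3, 3.97 for Fbxo30, 4.14 for FOXO4 and 4.27 for Usp14. It was 4.15 for ULK1, 2.58 for TSC22D2 and 3.68 for Tsc22d1. Groups held 2 libraries each, so single libraries were not screened as outliers.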

How the results depend on the processing

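Counts of members called between the sexes moved as follows. With the 4 libraries of a tissue alone, 2 were called in brain (main 1), 0 in liver (main 2) and 0 in muscle (main 4). That fit has fewer samples, and called 8065, 1 and 0 of all features in the same order. DESeq2 called 5 members in liver, beside 1686 of all features. Leaving out single libraries gave 0 to 1 in brain (0 without female brain 1 or male brain 2), 0 to 3 in liver (0 without female liver 1), 1 to 4 in gonad (1 without female gonad 1 or male gonad 2), 0 to 4 in muscle (0 without female muscle 2) and 2 to 3 for the interaction. For tissues, recovered totals called 5 members in brain (main 2), 5 in liver (main 3) and 5 in muscle (main 2). Of all features, 6686, 10050 and 9584 were then called in the same order. Limma called 3 members in gonad (main 6) and 5 in muscle with either pseudocount. Of all features, it called 10604 and 10546 in gonad and 9684 and 9288 in muscle. Males alone gave 1 member in brain and females alone 0 in muscle, beside 4740 and 6081 of all features. Leaving out single libraries gave 1 to 3 in brain, 3 to 5 in liver, 5 to 6 in gonad and 1 to 3 in muscle. CEBPD in gonad reversed to 0.11 under recovered totals and 0.21 in limma with either pseudocount, FBXO32 in gonad to 0.92 under recovered totals, ddit4 in brain to -0.04 in males alone and FBXO32 in muscle to -0.60 in females alone; apart from the sex splits, the cause was not tested. Male-above pairs of FPKM numbered 18 of 28, and 16 with TMM-scaled CPM, those lost being CEBPD in brain and FBXO32 in liver. Over all features, liver calls between the sexes (453) became 1686 in DESeq2, 300 under recovered totals, 200 and 203 in limma, 690 with the replicate block, 1 in the tissue alone and 40 (without male liver 1) to 2764 (without female liver 2) with a library left out. Muscle calls (481) became 1464, 2093, 1511 and 1397, with 0 in the tissue alone and 37 (without female muscle 2) to 813 (without female liver 1) with a library left out. Leaving out single libraries gave 1774 (female brain 1) to 7236 in brain (main 6471), 4905 (male gonad 2) to 8310 in gonad (7661) and 4252 (female gonad 1) to 7918 for the interaction (6440). Of the list genes named, the libraries of the tissue alone left 0 of 7 in liver and 0 of 9 in muscle past the threshold (adjusted p from 0.069 to 0.17 and from 0.0633 to 0.147). The labels do not say that a number marks 1 fish, and with 2 numbers a group pairing was not shown: deviations of same-numbered libraries correlated at -0.24 to 0.23 between female tissues, 0.20 to 0.57 between male tissues and -0.04 to 0.16 between the sexes of a tissue. With the replicate block, members called were 1, 3, 4 and 4 between the sexes and 2, 4, 6 and 2 for tissues (brain, liver, gonad, muscle). With sex and number together as the replicate block, tissue calls were 3, 4, 6 and 2.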
